A study of Mus musculus with 12 samples.

Results

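The 3 neurofilament genes varied more between libraries than the other genes of a group that also holds the genes for tau, the amyloid precursor, its β-secretase, a tau kinase and the activator of another. In mice on the purified diet, Nefl, Nefm and Nefh were lower in every injured library than in every sham library, as were 6.68% of all tested genes, and on the fish oil diet the injured and sham libraries overlapped for all 3. None of these differences passed the test across all genes. The group consists of 8 genes, Mapt, App, Bace1, Nefl, Nefm, Nefh, Gsk3b and Cdk5r1, taken as the rows whose Ensembl identifier maps to those symbols, out of 53379 genes in the table. All 8 were found once each, and all 8 passed the filter on low counts that left 19252 genes for testing. The list holds no synuclein gene, and none is described.

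RNA was measured by sequencing in cortex of wild-type C57BL/6J mice, 6 months after injury. The injury was repeated closed-head impact of a grade below mild (rlmTBI), set against sham. The 4 groups were fish oil injured, fish oil sham, purified injured and purified sham, with 3 libraries each, labelled as replicates 2, 3 and 4. Fish oil stands for cycles of a fish oil supplement within a high-fat diet, and purified for a purified control diet given continuously, so fish oil and fat content cannot be told apart. All groups were wild type and were kept on their diet long term. Nothing in the labels says that the libraries come from different animals, and the p-values therefore cover only library-to-library spread, which may be technical. Replicates 3 and 4 of each group share the first number of their library names, and replicate 2 has another. What that number stands for is not stated, and no fit took it into account. Sex and age are not stated in the labels.

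Neurofilaments are the intermediate filaments of axons. They assemble from a light, a medium and a heavy chain, encoded by Nefl, Nefm and Nefh, and set the calibre of large myelinated axons. Neurofilament light chain that leaves damaged axons is measured in blood and cerebrospinal fluid as a marker of axonal injury. Tau, the product of Mapt, binds axonal microtubules and is phosphorylated by glycogen synthase kinase 3β, encoded by Gsk3b, and by cyclin-dependent kinase 5, whose activator p35 is encoded by Cdk5r1. The amyloid precursor protein, encoded by App, is transported along axons and is cut by the β-secretase Bace1 on the way to amyloid-β, and its accumulation in axons is a standard histological sign of traumatic axonal injury. Those signs concern proteins, and the values below are transcript levels.

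The libraries held 46362158 to 70754854 counts. Transcripts of tissue next to the cortex stood apart in some libraries and are given here because several comparisons rest on those libraries. Ttr, the transthyretin gene of the choroid plexus, stood at 186, 2417 and 2256 CPM (read counts scaled to library size, with TMM factors) in fish oil injured replicates 2, 3 and 4. Purified sham replicate 3 had 434 CPM, and the other 8 libraries had 9.82 to 50.1 CPM. For Cdhr1, expressed by output neurons of the olfactory bulb, purified injured replicate 3 had 522 CPM and no other library more than 25.9 CPM. The striatal dopamine receptor gene Drd2 was at 72.2 CPM in fish oil sham replicate 2, 27.4 CPM in purified sham replicate 4, 10.5 CPM in fish oil injured replicate 4 and 0.331 to 4.14 CPM elsewhere. The edgeR quasi-likelihood test called 0 of 19252 genes in each of 7 comparisons at an adjusted p of 0.05, so nothing below is described as a change. DESeq2 called 3 to 186 genes in the same comparisons and limma-voom 0 to 2, and neither tool called any of the 8 genes in any of them. The tissue was cut in bulk, so fewer cells of a type and less RNA per cell cannot be told apart.

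Levels were set side by side per kilobase of exon, counting the exons of all annotated transcripts of a gene, so their order depends on the annotation. This length was 12996 bases for App and 5782 for Nefm, of which 1108 are held by 1 of 2 annotated Nefm transcripts. On this scale App was the highest at 123 ± 15.4 CPM per kilobase (SD over 12 libraries). Nefl followed at 108 ± 26.2, Mapt at 76.1 ± 5.81, Cdk5r1 at 56.0 ± 3.65, Gsk3b at 31.4 ± 2.51, Nefm at 30.6 ± 10.6, Bace1 at 18.1 ± 1.63 and Nefh at 16.2 ± 4.84 CPM per kilobase. App lay above 99.0% and Nefh, the lowest of the 8, above 85.5% of the 19252 tested genes on this scale. Mapt was above Cdk5r1 and Cdk5r1 above Gsk3b in 12 of 12 libraries. App was above Nefl in 10 of 12 and Nefl above Mapt in 11 of 12. Gsk3b and Nefm did not differ beyond their spread, with Gsk3b higher in 6 of 12 libraries, and Nefm was above Bace1, and Bace1 above Nefh, in 9 of 12 each. The light chain gene was thus the highest and the heavy chain gene the lowest of the 3 subunits by mean on this scale.

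**Figure D1:**
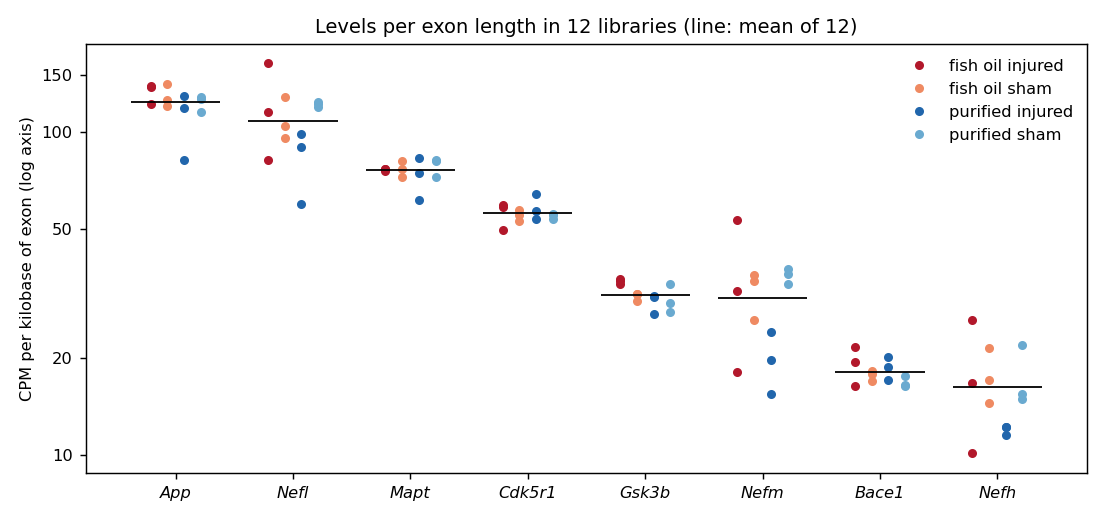
Levels of the 8 genes in CPM per kilobase of exon (log axis), 1 point per library coloured by group, with the mean of the 12 libraries as a line. App at 123 and Nefl at 108 CPM per kilobase lead, and the points of the 3 neurofilament genes are spread wider than those of the others.

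The genes differed in how much they varied. Over all 12 libraries the coefficient of variation of CPM was 34.5% for Nefm, 29.8% for Nefh and 24.2% for Nefl. For the others it was 12.5% for App, 9.0% for Bace1, 7.99% for Gsk3b, 7.64% for Mapt and 6.52% for Cdk5r1. The highest library exceeded the lowest 3.46-fold for Nefm, 2.71-fold for Nefl, 2.59-fold for Nefh and 1.71-fold for App, and 1.28- to 1.35-fold for the other 4 genes. Over all tested genes the common biological coefficient of variation, fitted within groups, was 0.289. Where the 8 genes stand among all genes in spread was not computed.

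Nefl, the light chain gene (chr14:68083863-68089095, plus strand, mm10), is the subunit with which the other chains co-assemble. It stood at 387, 277 and 549 CPM in fish oil injured libraries, at 352, 432 and 323 CPM in fish oil sham libraries, at 332, 202 and 304 CPM in purified injured libraries and at 402, 411 and 418 CPM in purified sham libraries. The 3 purified sham libraries lay close together and above all 3 purified injured ones, while the fish oil injured libraries reached from below to above every fish oil sham library. Fish oil injured replicate 4 was the highest and purified injured replicate 3 the lowest of the 12. Group means were 404 ± 137, 369 ± 56.4, 279 ± 68.2 and 410.2 ± 8.05 CPM for fish oil injured, fish oil sham, purified injured and purified sham libraries (SD, n = 3 each).

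Nefm, the medium chain gene, lies on the minus strand (chr14:68082590-68124846, mm10) and spans the whole of Nefl. It stood at 186, 105 and 309 CPM in fish oil injured libraries, at 199, 209 and 152 CPM in fish oil sham libraries, at 139, 89.4 and 114 CPM in purified injured libraries and at 210.0, 195 and 217 CPM in purified sham libraries. The highest and the lowest library were the same as for Nefl, and again every purified injured library lay below every purified sham library. Group means were 200.0 ± 103, 187 ± 30.7, 114 ± 25.0 and 207 ± 11.2 CPM for fish oil injured, fish oil sham, purified injured and purified sham libraries. An exon of 1 of the 2 annotated Nefm transcripts shares 1108 bases with exons of Nefl on the opposite strand, which is 32.8% of the exon length of Nefl and 19.2% of that of Nefm. The kit preserved strand but how strand was set in counting is not given in the sources used here. Reads from that stretch may not be told apart between the genes.

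Nefh, the heavy chain gene (chr11:4938754-4948064, minus strand, mm10), encodes the subunit with long side arms that are heavily phosphorylated in axons. It stood at 67.0, 40.5 and 105 CPM in fish oil injured libraries, at 57.9, 86.0 and 68.5 CPM in fish oil sham libraries, at 48.9, 49.0 and 46.3 CPM in purified injured libraries and at 87.7, 59.5 and 62.0 CPM in purified sham libraries. The purified injured libraries were nearly equal and all below the purified sham ones, and 1 fish oil injured library, replicate 3, was lower still. Group means were 70.8 ± 32.3, 70.8 ± 14.2, 48.1 ± 1.57 and 69.7 ± 15.6 CPM for fish oil injured, fish oil sham, purified injured and purified sham libraries.

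**Figure D2:**
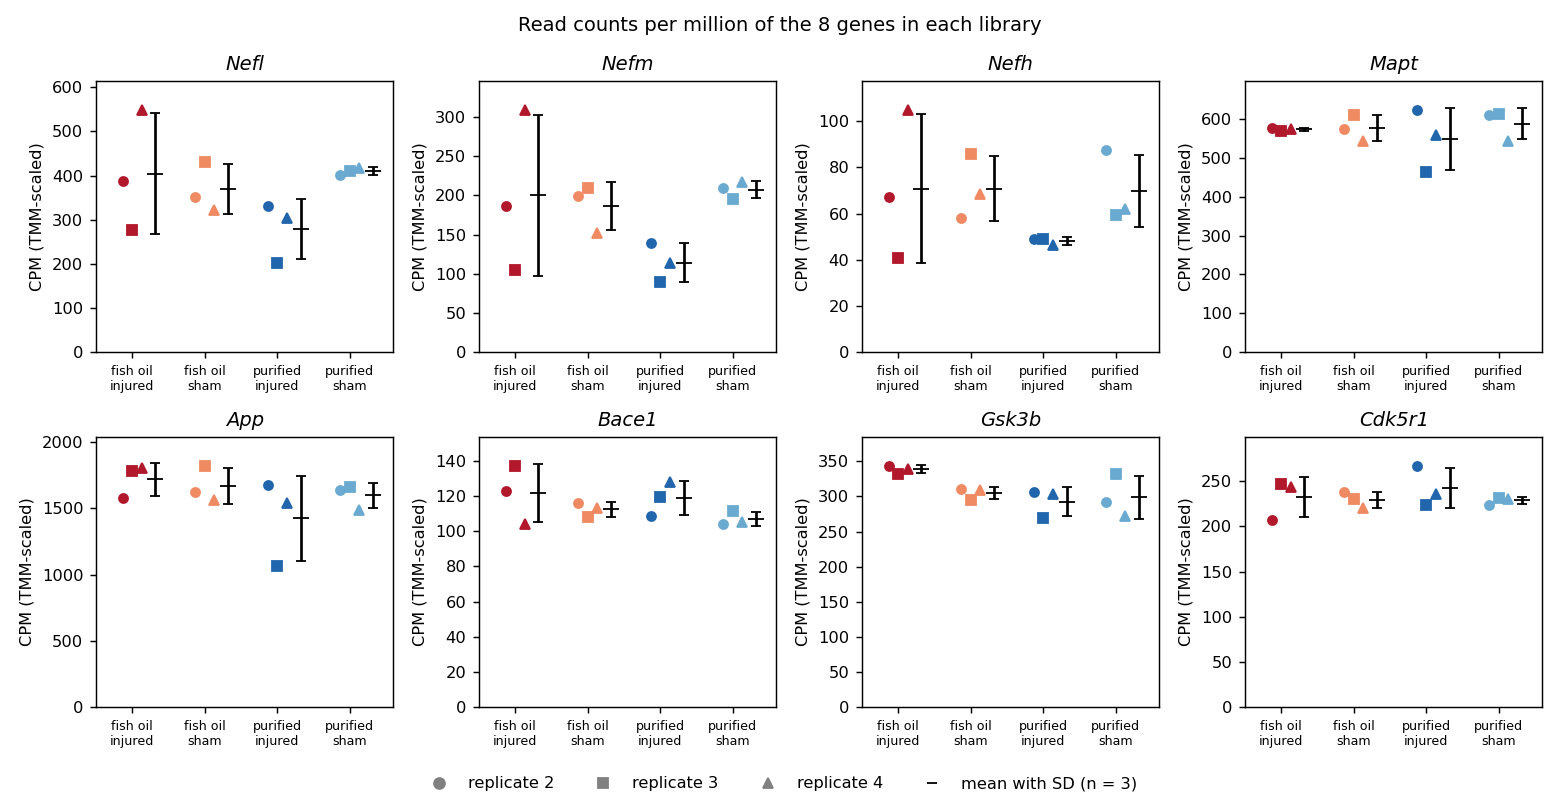
Level of each gene in CPM on linear axes from 0, with 1 point per library (the shape gives the replicate number) and the mean with SD beside it, for fish oil injured, fish oil sham, purified injured and purified sham libraries. For Nefl, Nefm and Nefh the 3 purified injured points lie below the 3 purified sham points, and the fish oil injured points are spread from 277 to 549, 105 to 309 and 40.5 to 105 CPM.

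Mapt, the tau gene (chr11:104231390-104332090, plus strand, mm10), stood at 578, 571 and 576 CPM in fish oil injured libraries, at 576, 612 and 545 CPM in fish oil sham libraries, at 624, 464 and 560.1 CPM in purified injured libraries and at 611, 614 and 544 CPM in purified sham libraries. All 4 groups overlapped, and the lowest of the 12 libraries was purified injured replicate 3, the one with olfactory bulb transcripts. The same library was the lowest for App (chr16:84949685-85173766, minus strand, mm10). App stood at 1576, 1778 and 1802 CPM in fish oil injured libraries, at 1622, 1821 and 1563 CPM in fish oil sham libraries, at 1672, 1063 and 1541 CPM in purified injured libraries and at 1640.1, 1664 and 1490.3 CPM in purified sham libraries. Apart from that library the App values lay between 1490.3 and 1821 CPM, and the groups overlapped.

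Bace1, the β-secretase gene (chr9:45838580-45864399, plus strand, mm10), stood at 123, 137 and 104 CPM in fish oil injured libraries, at 116, 108 and 113 CPM in fish oil sham libraries, at 109, 119 and 128 CPM in purified injured libraries and at 104, 112 and 105 CPM in purified sham libraries. The injured libraries reached higher on both diets but overlapped with the sham ones. Of its exon length, 15.4% is shared with Rnf214 and 15.0% with Gm49338 on the opposite strand, so the same limit of counting applies as for Nefl and Nefm.

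Among the kinase genes, Gsk3b stood at 344, 333 and 339 CPM in fish oil injured libraries, at 310.4, 295 and 309 CPM in fish oil sham libraries, at 306, 269 and 303 CPM in purified injured libraries and at 291, 332 and 272 CPM in purified sham libraries. The 3 fish oil injured libraries were the 3 highest of the 12, with 1 purified sham library just below them. Cdk5r1 (chr11:80477023-80481184, plus strand, mm10) stood at 207, 247 and 244 CPM in fish oil injured libraries, at 238, 230.0 and 219.9 CPM in fish oil sham libraries, at 267, 224 and 236 CPM in purified injured libraries and at 224, 232 and 230.4 CPM in purified sham libraries, and all groups overlapped.

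Injury was compared with sham first in mice on the fish oil diet. The edgeR test was passed by 0 of the 8 genes and 0.0% of all tested genes, and none of the 8 had an unadjusted p under 0.05 against 3.48% of all genes. The neurofilament genes had log2 fold changes of 0.13 ± 0.24 (Nefl), 0.10 ± 0.31 (Nefm) and -0.0001 ± 0.28 (Nefh), with SE. Those values depend on single fish oil injured libraries. Without replicate 4 they were -0.15, -0.36 and -0.40, and without replicate 3 they were 0.34, 0.41 and 0.28. Gsk3b was the only one of the 8 whose groups did not overlap, higher in injured libraries, at 0.15 ± 0.097 (adjusted p = 0.999), and 4.97% of all genes were higher in injured libraries without overlap. Its value stayed between 0.12 and 0.16 with any 1 library left out. The other genes were at -0.007 (Mapt), 0.04 (App), 0.11 (Bace1) and 0.02 (Cdk5r1).

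In mice on the purified diet the same comparison gave log2 fold changes of -0.56 ± 0.24 for Nefl (95% interval -1.07 to -0.04), -0.86 ± 0.31 for Nefm (-1.55 to -0.18) and -0.54 ± 0.29 for Nefh (-1.17 to 0.09). The levels in injured libraries were 0.681, 0.550 and 0.689 times those in sham libraries. Adjusted p-values by edgeR were 0.763, 0.763 and 0.778, from unadjusted p-values of 0.0373, 0.0182 and 0.0862, so 0 of the 8 genes and 0.0% of all genes passed. Nefl and Nefm, 2 of the 8, were lower with an unadjusted p under 0.05, as were 2.57% of all genes, and 6.5% of all genes had such a p in either direction. The 3 neurofilament genes, and none of the other 5, were lower in injured libraries without overlap, as were 6.68% of all genes. Without purified injured replicate 3, the library with olfactory bulb transcripts, the values were -0.35 (Nefl), -0.70 (Nefm) and -0.54 (Nefh), and without purified sham replicate 2 Nefh was at -0.33. Without purified sham replicate 4, the sham library with more Drd2, they were -0.54 (Nefl), -0.83 (Nefm) and -0.62 (Nefh). The remaining genes had small values, -0.10 ± 0.12 for Mapt, -0.17 ± 0.15 for App, 0.15 ± 0.11 for Bace1, -0.03 ± 0.097 for Gsk3b and 0.08 ± 0.10 for Cdk5r1. Mapt and App moved to 0.02 each when purified injured replicate 3 was left out. Over the 8 genes 6 were below 0 with a median of -0.13, against 49.4% below 0 and a median of 0.003 over all genes.

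Fish oil was compared with the purified diet in injured mice, using the same purified injured libraries, so this comparison and the one before are not independent. Nefl was at 0.53 ± 0.24 (adjusted p = 0.465), Nefm at 0.81 ± 0.31 (adjusted p = 0.420) and Nefh at 0.56 ± 0.29 (adjusted p = 0.509), by edgeR. For each of the 3 genes fish oil injured replicate 3 lay within or below the range of the purified injured libraries, so the groups overlapped. Without fish oil injured replicate 4 the values were 0.24, 0.34 and 0.15, and without purified injured replicate 3 they were 0.34, 0.65 and 0.56. Gsk3b was at 0.21 ± 0.097 (adjusted p = 0.470) and was higher in all 3 fish oil libraries without overlap, which held for 5.6% of all genes. App was at 0.27 ± 0.15 and at 0.09 without purified injured replicate 3. Mapt (0.07), Bace1 (0.03) and Cdk5r1 (-0.06) were near 0. In all, 7 of 8 genes were above 0 with a median of 0.24, 2 of 8 (Nefl and Nefm) and 3.89% of all genes were higher with an unadjusted p under 0.05 (10.7% of all genes in either direction), and 0 of 8 and 0.0% of all genes passed the test.

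In sham mice the diets gave values near 0 for every gene of the group, from -0.15 ± 0.24 (Nefl) and -0.15 ± 0.31 (Nefm) to 0.07 ± 0.11 (Bace1). None of the 8 had groups without overlap, against 13.8% of all genes in either direction, and none had an unadjusted p under 0.05, against 3.69% of all genes. None of the 8 and 0.0% of all genes passed the edgeR test. The 95% intervals were -0.67 to 0.36 for Nefl, -0.83 to 0.53 for Nefm and -0.60 to 0.65 for Nefh.

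The difference between the diets in the injury effect was tested directly as an interaction. It was 0.69 ± 0.33 for Nefl (95% interval -0.04 to 1.42), 0.96 ± 0.44 for Nefm (-0.003 to 1.92) and 0.54 ± 0.40 for Nefh (-0.35 to 1.42), with adjusted p = 0.820, 0.820 and 0.837 by edgeR. The test was passed by 0 of the 8 genes and 0.0% of all genes, and none of the 8 but 5.76% of all genes had an unadjusted p under 0.05. The unadjusted p-values of the 3 neurofilament genes were 0.0621, 0.0505 and 0.209. Without fish oil injured replicate 4 the interaction was 0.39, 0.49 and 0.13, and without fish oil injured replicate 3 it was 0.90, 1.27 and 0.82. For the other 5 genes it lay between -0.06 and 0.21.

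Averaged over diets, the injury effect was -0.21 ± 0.17 for Nefl, -0.38 ± 0.22 for Nefm and -0.27 ± 0.20 for Nefh, and 0.13 ± 0.076 for Bace1. An unadjusted p under 0.05 was found for 0 of the 8 genes, against 3.6% of all genes, and 0.0% of all genes passed the edgeR test. Without fish oil injured replicate 4 Nefm was at -0.61 (adjusted p = 0.862), and without fish oil injured replicate 3 at -0.23. Averaged over injury states, the diet effect was 0.19 ± 0.17 for Nefl, 0.33 ± 0.22 for Nefm, 0.29 ± 0.20 for Nefh, 0.17 ± 0.11 for App and 0.12 ± 0.068 for Gsk3b. None of the 8 had an unadjusted p under 0.05, against 8.85% of all genes, and 0.0% of all genes passed. Mapt, Cdk5r1 and, for diet, Bace1 stayed within 0.06 of 0 in both averages.

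**Figure D3:**
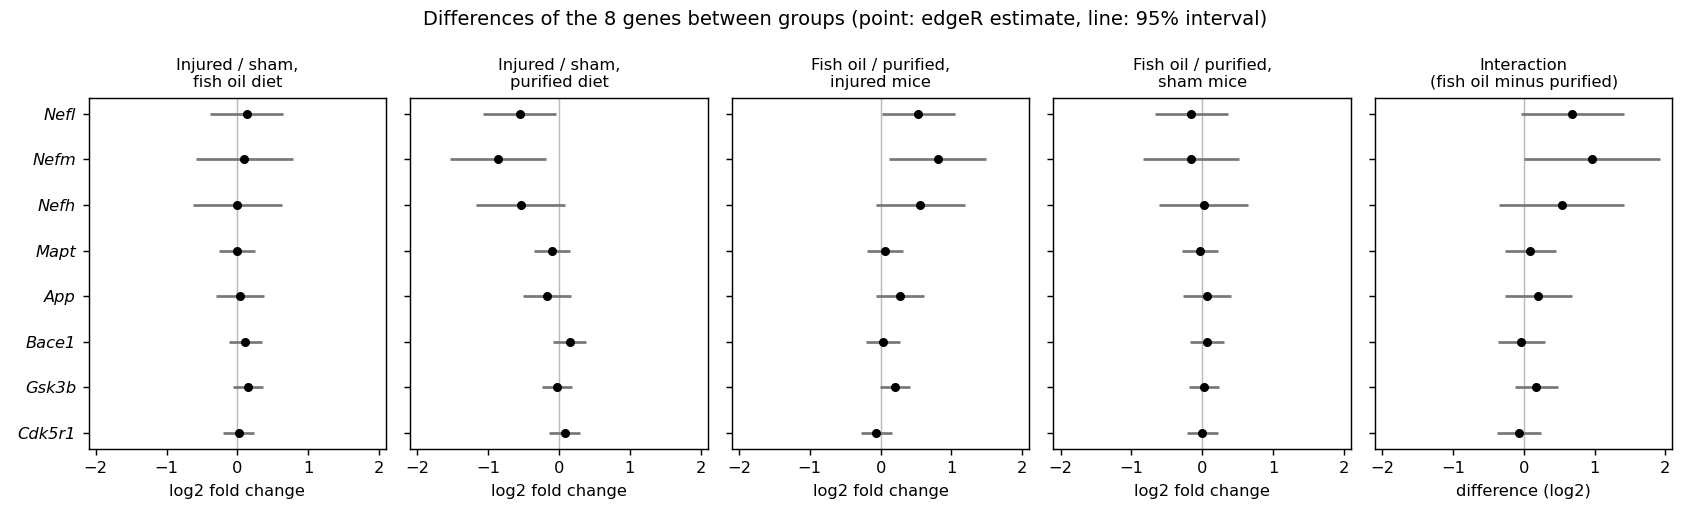
Differences of the 8 genes in 5 comparisons on the log2 scale, with edgeR estimates as points and 95% intervals as lines. Intervals that leave out 0 are those of Nefl and Nefm for injury on the purified diet and for diet in injured mice, and none of the adjusted p-values passed 0.05.

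The subunits were next compared with each other, since a ratio within a library does not depend on library scaling. Log2 CPM of Nefm minus that of Nefl averaged -1.10 ± 0.29 in fish oil injured, -0.98 ± 0.15 in fish oil sham, -1.28 ± 0.12 in purified injured and -0.98 ± 0.077 in purified sham libraries (SD, n = 3 each). The injury difference of this ratio, averaged over diets, was -0.20 (exact two-sided permutation test within diets, p = 0.08, smallest possible p = 0.005). Without fish oil injured replicate 4 it was -0.27 (exact permutation p = 0.015, the lowest with any 1 library left out and not adjusted, the highest being 0.215). The part of the exon stretch shared by Nefl and Nefm in this ratio was not tested. The diet difference of the ratio was 0.09 (exact permutation p = 0.40). For Nefh minus Nefl the injury difference was -0.05 (exact permutation p = 0.75) and the diet difference 0.07 (exact permutation p = 0.69).

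Across the 12 libraries the 3 neurofilament genes varied together. Pearson's r of log2 CPM was 0.96 for Nefl and Nefm (rho 0.93), 0.85 for Nefm and Nefh (rho 0.79) and 0.78 for Nefl and Nefh (rho 0.76). Over the 28 pairs of the 8 genes, permutation tests adjusted by Benjamini-Hochberg gave 0.00028, 0.0111 and 0.0219 for r, from permutation p-values of 1e-05 (the smallest that 100000 resamples can give), 0.00079 and 0.00235. For rho the adjusted permutation values were 0.00168, 0.0227 and 0.0299. Without the 2 libraries farthest from the median of the first gene, r was 0.94, 0.82 and 0.79. Nefl and Nefm share a stretch of exon on opposite strands, whose part in their r was not tested, and Nefh lies on another chromosome.

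Bace1 ran the other way, with r of -0.73 to Nefm (permutation p adjusted over the 28 pairs 0.0338, rho -0.83), -0.74 to Nefh (0.0329, rho -0.76) and -0.64 to Nefl (0.0814, rho -0.80), and -0.57, -0.54 and -0.60 without the 2 libraries farthest from its median. Mapt and App had an r of 0.87 (adjusted permutation p = 0.0244, rho 0.69 with an adjusted permutation p of 0.0645), which was 0.58 without the 2 libraries farthest from the median of Mapt. In all 6 of 28 pairs passed by r. With the group means removed and libraries permuted within groups, r was 0.93, 0.78 and 0.69 for the neurofilament pairs, -0.84 and -0.85 for Bace1 with Nefm and Nefh, and 0.92 for Mapt and App, and 0 of 28 pairs passed, with adjusted permutation p-values of at least 0.0864. Cdk5r1 passed with none of the other genes, at r from -0.30 to 0.35.

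**Figure D4:**
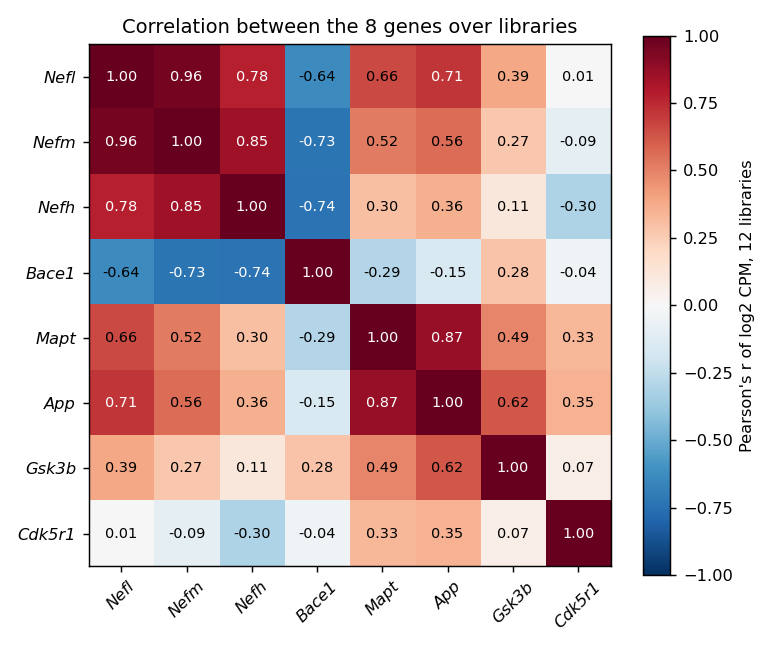
Pearson's r of log2 CPM over 12 libraries for each pair of the 8 genes. The 3 neurofilament genes form a block with r of 0.78 to 0.96, Bace1 is negative to all 3, and Mapt and App stand at 0.87.

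The genes whose profile over the 12 libraries was most like that of each member were taken among 9605 genes with a mean of at least 10 CPM. Nefm was most like Syt2 (r = 0.98), Smim10l1 (0.96) and Nefl (0.96). Syt2 encodes a synaptotagmin, a calcium sensor of transmitter release. Nefl was most like Smim10l1, Slc24a2 and Apbb2 (0.96 each), and Nefh like Vamp1 (0.95), a vesicle fusion protein gene, Apln (0.91) and Mpc2 (0.91). The highest r for the others was 0.93 for Mapt (Nckipsd), 0.95 for App (Asns), 0.92 for Bace1 (Dcaf7), 0.94 for Gsk3b (Zyg11b) and 0.93 for Cdk5r1 (Sgsm2). The median r over all 9605 genes lay between -0.03 and 0.09 for the 8 members. These values are descriptions over libraries that share their group and dissection.

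Marker genes of cell types were set beside the neurofilament genes. Pvalb, which marks a class of fast-spiking inhibitory neurons, stood at 44.1, 17.4 and 102 CPM in fish oil injured libraries, at 16.6, 67.9 and 42.9 CPM in fish oil sham libraries, at 27.1, 17.7 and 15.9 CPM in purified injured libraries and at 74.9, 41.4 and 56.3 CPM in purified sham libraries. As for Nefm, fish oil injured replicate 4 was the highest of the 12. Every purified injured library lay below every purified sham one, which held for 6.68% of all genes. Its log2 fold change for injury on the purified diet was -1.51 ± 0.61 (edgeR adjusted p = 0.763). Of the 8 inhibitory neuron markers, Pvalb among them, 4 were above and 4 below 0 in that comparison, and their summed level was 1278 to 1625 CPM in fish oil injured, 1362 to 2026 in fish oil sham, 1133 to 2951 in purified injured and 1274 to 1351 in purified sham libraries. The 2951 CPM were those of purified injured replicate 3, the library with olfactory bulb transcripts, where Gad1 alone was at 1701 CPM. Purified injured replicates 2 and 4 summed to 1133 and 1310 CPM. The 2026 CPM were those of fish oil sham replicate 2, the library with the most Drd2. The part of inhibitory neurons in the neurofilament values was not tested.

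Oligodendrocytes wrap the axons that neurofilaments fill. Their 11 myelin markers were all below 0 for injury on the purified diet, with a median of -0.69, against 49.4% of all genes below 0. With fish oil they were all below 0 at a median of -0.16, against 51.0% of all genes. None of the 11 had an unadjusted p under 0.05 in either comparison, against 6.5% (purified diet) and 3.48% (fish oil diet) of all genes. For diet in injured mice all 11 were above 0, with a median of 0.69. Their summed level was 2039 to 5786 CPM in fish oil injured, 2934 to 5468 in fish oil sham, 2104 to 3089 in purified injured and 1983 to 5871 in purified sham libraries, so the groups overlapped. For 8 excitatory neuron markers 7 were below 0 for injury on the purified diet, with a median of -0.37, and with fish oil 7 were above 0, at a median of 0.18. Their summed level was 1155 to 1642 CPM in fish oil injured, 874 to 1565 in fish oil sham, 896 to 1773 in purified injured and 1290.2 to 1455 in purified sham libraries. Markers shared by all neurons, 10 in number, were close to 0, with medians of -0.07 for injury on the purified diet and 0.04 on the fish oil diet, and summed levels of 8463 to 11147 CPM in fish oil injured, 7593 to 9866 in fish oil sham, 7026 to 9425 in purified injured and 8321 to 9393 in purified sham libraries. The 896 and 7026 CPM were those of purified injured replicate 3, and the 874 and 7593 CPM those of fish oil sham replicate 2. None of the genes in these lists was at 0 in any library, and their part in the neurofilament values was not tested.

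Choroid plexus markers were high in all 3 fish oil injured libraries and in purified sham replicate 3, and olfactory bulb markers in purified injured replicate 3. The 8 choroid plexus markers summed to 227 to 2684 CPM in fish oil injured, 35.8 to 65.4 in fish oil sham, 23.3 to 50.9 in purified injured and 27.7 to 483 in purified sham libraries. By edgeR, 8 of 8 had an unadjusted p under 0.05 for injury with fish oil (3.48% of all genes). For diet in injured mice 7 of 8 did (10.7% of all genes), and all were higher in fish oil injured libraries. In these 2 comparisons, choroid plexus content and group cannot be told apart. Nefl was at 277 CPM in fish oil injured replicate 3 and 549 CPM in replicate 4, the pair of libraries with the most Ttr. The 3 olfactory bulb markers tested reached a sum of 644 CPM in purified injured replicate 3, against 26.8 CPM or less in the others, with Eomes at 0 in some of them.

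**Figure D5:**
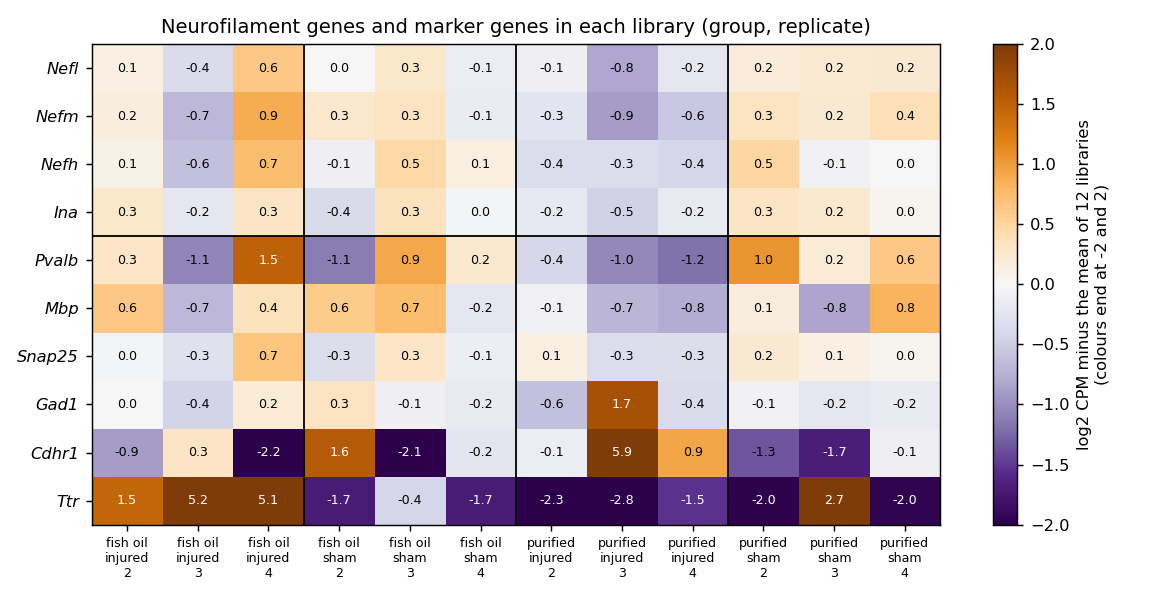
Log2 CPM minus the mean of the 12 libraries for the neurofilament genes, Ina and 6 marker genes, with 1 column per library in the order fish oil injured, fish oil sham, purified injured, purified sham. The purified injured columns are below the mean for Nefl, Nefm, Nefh, Ina and Pvalb. The largest departures are those of Ttr in fish oil injured replicates 3 and 4 and of Cdhr1 in purified injured replicate 3.

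Further genes of these pathways are given list by list, and over all genes the median log2 fold change lay between -0.02 and 0.01 in each comparison. Of 32 genes of the axonal cytoskeleton, among them Nefl, Nefm, Nefh and Mapt, 0 passed the edgeR test in any comparison. For injury on the purified diet 13 were above and 19 below 0, with a median of -0.01, and 9 had an unadjusted p under 0.05 (6.5% of all genes), 6 of them lower (2.57% of all genes), with Nefl and Nefm among the 6. Dst, which encodes dystonin, a linker of the cytoskeleton, was at -0.38 ± 0.13. With fish oil 21 were above and 11 below 0, at a median of 0.06, and 0 had an unadjusted p under 0.05 (3.48% of all genes). The spectrin genes Sptbn4 and Sptan1 led there at -0.30 ± 0.19 and 0.19 ± 0.13. For diet in injured mice 28 were above 0, with a median of 0.17 against 0.006 over all genes, and 5 had an unadjusted p under 0.05, all higher (3.89% of all genes), among them Nefl, Nefm and Dst, the last at 0.41 ± 0.13. In sham mice 20 were above 0, with a median of 0.03, and 2 had such a p (3.69% of all genes), the tubulin genes Tubb3 at 0.40 ± 0.15 and Tuba1a at 0.36 ± 0.15. For diet averaged over injury states 30 were above 0, with a median of 0.13, and 2 below 0, against 47.5% of all genes. Of the 32, 1 had an unadjusted p under 0.05, against 8.85% of all genes. Stmn3 at 0.30 ± 0.12 and the growth cone gene Gap43 at 0.48 ± 0.28 led. For injury averaged over diets 21 were above 0 and 0 had an unadjusted p under 0.05 (3.6% of all genes). Tubb2a was at 0.31 ± 0.16 and Stmn4 at -0.20 ± 0.10. DESeq2 and limma-voom also called 0 of the 32 in each comparison. The mean log2 CPM of the list was 7.92 in purified injured replicate 3, the library with olfactory bulb transcripts. It was 8.28 and 8.35 in purified injured replicates 2 and 4, 8.18 to 8.27 in purified sham and 8.33 to 8.47 in fish oil injured libraries. How far the values of the list rest on purified injured replicate 3 was not tested.

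Ina, the gene of α-internexin, a further chain of neurofilaments in the central nervous system, was singled out from that list after its values were seen. It stood at 228, 162 and 233 CPM in fish oil injured libraries, at 146, 239.5 and 185 CPM in fish oil sham libraries, at 165, 137 and 167 CPM in purified injured libraries and at 234, 224 and 194 CPM in purified sham libraries. As for the other chains, the purified groups did not overlap, injured libraries being lower as for 6.68% of all genes, and the fish oil groups did. The injury log2 fold changes of Ina were 0.13 ± 0.19 with fish oil and -0.47 ± 0.19 with the purified diet (edgeR adjusted p = 0.999 and 0.763).

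Transport along axons was represented by 16 genes of kinesin, dynein and their adaptors, and 0 passed the test in any comparison by edgeR, DESeq2 or limma-voom. For diet in injured mice 13 of 16 were above 0, with a median of 0.13 against 0.006 over all genes, and 3 had an unadjusted p under 0.05, all higher, as did 3.89% of all genes, among them the kinesin heavy chain genes Kif5b at 0.46 ± 0.16 and Kif5a at 0.61 ± 0.23. In sham mice 10 were above 0 and 0 had such a p (3.69% of all genes). The median there was 0.05, with Dctn1 at 0.30 ± 0.20 and Mapk8ip1 at 0.20 ± 0.16. For injury 7 were above 0 on the purified diet, with 2 at an unadjusted p under 0.05 (6.5% of all genes). These were the dynein gene Dync1i1 at 0.48 ± 0.21 and Kif5c at -0.56 ± 0.26. On the fish oil diet 11 were above 0, led by Kif3b at 0.22 ± 0.099, with 0 at such a p (3.48% of all genes). Kif5b and Kif5a led the diet average at 0.22 ± 0.11 and 0.32 ± 0.16, where 0 of 16 had such a p (8.85% of all genes). The list summed to 6935 CPM in purified injured replicate 3, the library with olfactory bulb transcripts, and to 10812.5 and 10051 CPM in replicates 2 and 4. It summed to 11253 to 12591.5 CPM in fish oil injured, 10504 to 11131 in fish oil sham and 10539.5 to 11328 in purified sham libraries. How far the values of the list rest on purified injured replicate 3 was not tested.

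Among 26 kinases, phosphatases and regulators that act on tau, Gsk3b and Cdk5r1 included, 0 passed the test in any comparison by edgeR, DESeq2 or limma-voom. On the purified diet 2 had an unadjusted p under 0.05 for injury (6.5% of all genes), among them Fyn, a tyrosine kinase gene, at 0.44 ± 0.17, and the median was -0.03. On the fish oil diet 0 did (3.48% of all genes). There 20 were above 0 and the median was 0.05, with Gsk3b and Dyrk1a, at 0.13 ± 0.088, leading. Diet gave 18 of 26 above 0 in injured mice, with a median of 0.09. Gsk3b was first there, with the tau tubulin kinase gene Ttbk2 at 0.23 ± 0.11. In sham mice 16 of 26 were above 0, with a median of 0.03 and Ppp2r1a at 0.17 ± 0.10. An unadjusted p under 0.05 was found for 0 of the 26 in either, against 10.7% (injured mice) and 3.69% (sham mice) of all genes.

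The family of App, its secretases and adaptors had 27 listed genes, of which 26 were tested, and 0 passed in any comparison by edgeR, DESeq2 or limma-voom. Aph1b, which encodes a γ-secretase subunit, was at 0.41 ± 0.13 for injury on the purified diet (edgeR adjusted p = 0.763), where the list had a median of -0.02 and 1 gene with an unadjusted p under 0.05 (6.5% of all genes). Adam10, which encodes the main α-secretase of neurons, was at 0.38 ± 0.16 for injury with fish oil (edgeR adjusted p = 0.999), where 19 of 26 were above 0 and the median was 0.08. For diet in injured mice 17 of 26 were above 0, with Apbb2 at 0.32 ± 0.15 and Adam17 at -0.40 ± 0.19. In sham mice 14 were, with Aph1a at -0.24 ± 0.11. An unadjusted p under 0.05 was found for 0 of the 26 in either, against 10.7% (injured mice) and 3.69% (sham mice) of all genes.

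Of 11 genes for the degradation and clearance of amyloid-β, 0 passed the edgeR test. For diet in injured mice 5 were above and 6 below 0, and 2 had an unadjusted p under 0.05 (10.7% of all genes), Ece2, an endothelin-converting enzyme gene, at -1.14 ± 0.30 (edgeR adjusted p = 0.362) and Ager, the gene of the receptor for advanced glycation end products, at -1.47 ± 0.55 (edgeR adjusted p = 0.408). DESeq2 called Ece2 in this comparison and limma-voom called 0 of the 11. For injury on the purified diet the protease gene Ide was at 0.60 ± 0.25 and the astrocyte water channel gene Aqp4 at 0.75 ± 0.34. They were the 2 of 11 with an unadjusted p under 0.05 (6.5% of all genes). On the fish oil diet 0 of 11 had one (3.48% of all genes). In sham mice Ece1, the 1 of 11 with such a p (3.69% of all genes), was at -0.33 ± 0.15 and the cathepsin gene Ctsd at 0.23 ± 0.14.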

How the data were processed

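Mouse cortex RNA was sequenced in 12 libraries, 3 in each of 4 groups, from a stranded kit with paired reads, per the labels' protocols. The submitters' processing notes name the aligner STAR 2.5.2a, the counter featureCounts 1.4.3-p1 and the build mm10. The annotation release, how strand was set and how multi-mapped reads were handled were not given in the sources used here. The authors deposited raw counts of reads for each gene. Values of 2 were more frequent than values of 1 (20514 against 11222), so the counts may include both mates of a pair. Symbols, exon lengths and positions came from GENCODE M21, where 53274 identifiers were found when versions were ignored and 50604 when they were not. Gsk3b matched without version only, so no position is given for it.

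Genes were filtered with filterByExpr (minimum count 10), library sizes took TMM factors, and the robust quasi-likelihood fit of edgeR 4.0.16 (glmQLFit, glmQLFTest) had 1 mean per group over the 12 libraries, with 8 residual degrees of freedom. Benjamini-Hochberg adjustment ran over 19252 genes at a threshold of 0.05. Log2 CPM used a prior count of 2. The common biological coefficient of variation was 0.289. The procedure was tested on simulated counts. Replicates of a group differed beyond sampling noise in every pair, so each library was counted once. Differences are on the log2 scale, injured over sham and fish oil over purified. DESeq2 1.42.0 and limma-voom (limma 3.58.1) were alternatives, beside other scalings and filters, fits on 2 groups, the replicate number as a block and leaving out libraries.

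The 8 genes, the gene lists and the markers were chosen with earlier results of these data known. Named were the 8 members, of each pathway list genes past the threshold and the 2 with the smallest p in a comparison, and the 3 genes most like each member among those with a symbol that was not a predicted gene name. Some of these are not reported here. Single marker genes, Pvalb and Ina among them, were chosen after their values were seen.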

Additional observations from a re-analysis of the deposited data

How the results depend on the processing

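None of the 8 genes was called under any alternative run. Of 1096 values of single genes under alternatives, 18 moved by more than their standard error, and 1078 did not. The count of all genes called, 0 by edgeR, was with DESeq2 14 (injury, purified diet), 37 (injury, fish oil diet), 186 (diet, injured mice), 17 (diet, sham mice), 3 (injury, averaged), 99 (diet, averaged) and 21 (interaction). It was 1 (injury, fish oil diet) and 2 (injury, averaged) with limma-voom, 1 (injury, averaged) and 2 (diet, averaged) with every gene of at least 1 count, and 1 (diet, injured mice) without fish oil sham replicate 2 and purified injured replicate 3, the libraries with the most striatal and the most olfactory bulb transcripts. That setting keeps the libraries high in choroid plexus transcripts (fish oil injured replicates 2, 3 and 4 and purified sham replicate 3) and purified sham replicate 4, where Drd2 was at 27.4 CPM. With 1 library left out the counts were 0 to 7 for injury on the fish oil diet, 0 to 83 for diet in injured mice, the highest without purified injured replicate 4, 0 to 6 for diet averaged, and 0 in the other 4 comparisons. The correlated pairs, 6 of 28, were 0 with group means removed and 2 to 7 with 1 library left out, the lowest without fish oil injured replicate 4. The injury difference of the Nefm to Nefl ratio was -0.27 to -0.13 with 1 library left out, at exact permutation p-values of 0.015 to 0.215. The lowest came without fish oil injured replicate 4, and these p-values are not adjusted for the number of fits or ratios. With the replicate block edgeR called 0 genes in each comparison, and Nefm was at -0.88 for injury on the purified diet and 0.77 for diet in injured mice. The replicate numbers do not pair the libraries: deviations of same-numbered libraries had r of -0.46 to 0.36 (median -0.07). RLE and upper-quartile factors moved the median of all genes by less than 0.1. Each group had 3 libraries.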
